A study of Homo sapiens with 8 samples.

Results

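The subunits of Polycomb repressive complex 2 (PRC2) were followed at the transcript level in HEK293T cells treated with DZNep. The 10 genes were taken as a named list, EZH2, EZH1, EED, SUZ12, JARID2, RBBP4, RBBP7, MTF2, PHF19 and AEBP2, and each was found once among the 57500 genes of the count table. All 10 were expressed well enough to be tested, among 19171 genes tested in all. HEK293T is an established line from human embryonic kidney in which the SV40 large T antigen is expressed. 4 libraries came from cells given 100 µM DZNep (3-deazaneplanocin A) for 48 h and 4 from cells given vehicle for the same time (Control). DZNep blocks S-adenosylhomocysteine hydrolase, so that S-adenosylhomocysteine builds up and restrains methyltransferases that use S-adenosylmethionine (SAM). The study sequenced RNA beside its measurements of protein abundance and protein thermal stability, to tell direct from indirect effects on stability. A single line, a single dose and a single time were sampled, so neither a dose response nor the order of events can be read from these libraries. The vehicle is not named in the labels, and the labels give DMEM as the medium where the study's methods give RPMI.

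PRC2 places methyl groups on H3K27, taking them from SAM, and the trimethylated mark is found at silent developmental genes. EZH2 or its paralog EZH1 holds the catalytic SET domain, EED reads the trimethylated mark and stimulates the enzyme, SUZ12 is the scaffold on which the other subunits assemble, and RBBP4 and RBBP7 are WD40 histone chaperones. The core joins either a Polycomb-like protein (MTF2, PHF19 or PHF1), forming the PRC2.1 class, or JARID2 with AEBP2, forming the PRC2.2 class. DZNep has been used widely as an agent that lowers EZH2 protein. Protein and histone marks were not measured in these libraries, and the values below are transcripts only. In bulk RNA, a smaller number of cells expressing a gene and a smaller amount of its transcript per cell cannot be told apart.

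The libraries held between 25043058 and 44902779 reads assigned to genes, and the counts of single members ranged from 306 to 16001 reads. Values below are normalised read counts, that is counts divided by 1 size factor per library. The mitochondrial share of the reads was 7.76%, 3.02%, 3.16% and 13.7% in Control replicates 1 to 4 and 7.04%, 4.25%, 4.44% and 10.1% in DZNep replicates 1 to 4.

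JARID2 was the only member whose transcript changed at an adjusted p under 0.05 (edgeR's quasi-likelihood test, Benjamini-Hochberg adjustment over all genes tested), and it rose. No member fell at that threshold. The unadjusted p of the same test was also under 0.05 for PHF19, which was higher, and for EED, which was lower. When same-numbered libraries were treated as pairs, 2 members fell. Neither the sample titles nor the study's methods state such a pairing, and pairs below means only libraries of the same number. Of all genes tested, 19.1% rose and 21.8% fell, or 40.8% in either direction, against 10% of the members. No member passed the adjusted threshold together with an absolute log2 fold change over 1, which 24.2% of all genes did (10.6% higher and 13.5% lower), nor with the block, where 26.0% did (11.7% higher and 14.3% lower). The members' log2 fold changes ran from -0.35 to 0.74 with a median of -0.14, beside a median of -0.03 over all genes tested. 4 were above 0 and 6 below. With the replicate number as a block, 3 members rose (SUZ12, PHF19 and JARID2) and 2 fell (EED and RBBP4), against 28.8% and 30.2% of all genes under the same fit and 59.0% in either direction. In 2 members, JARID2 and PHF19, the DZNep libraries all lay above the Control libraries, and in none did they all lie below. Over all genes tested the corresponding shares were 19.5% and 19.4%, or 38.9% together. DESeq2 called 2 members, JARID2 and PHF19, both higher. It called 32.7% of the 28787 genes to which it gave an adjusted p, in either direction.

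**Figure D1:**
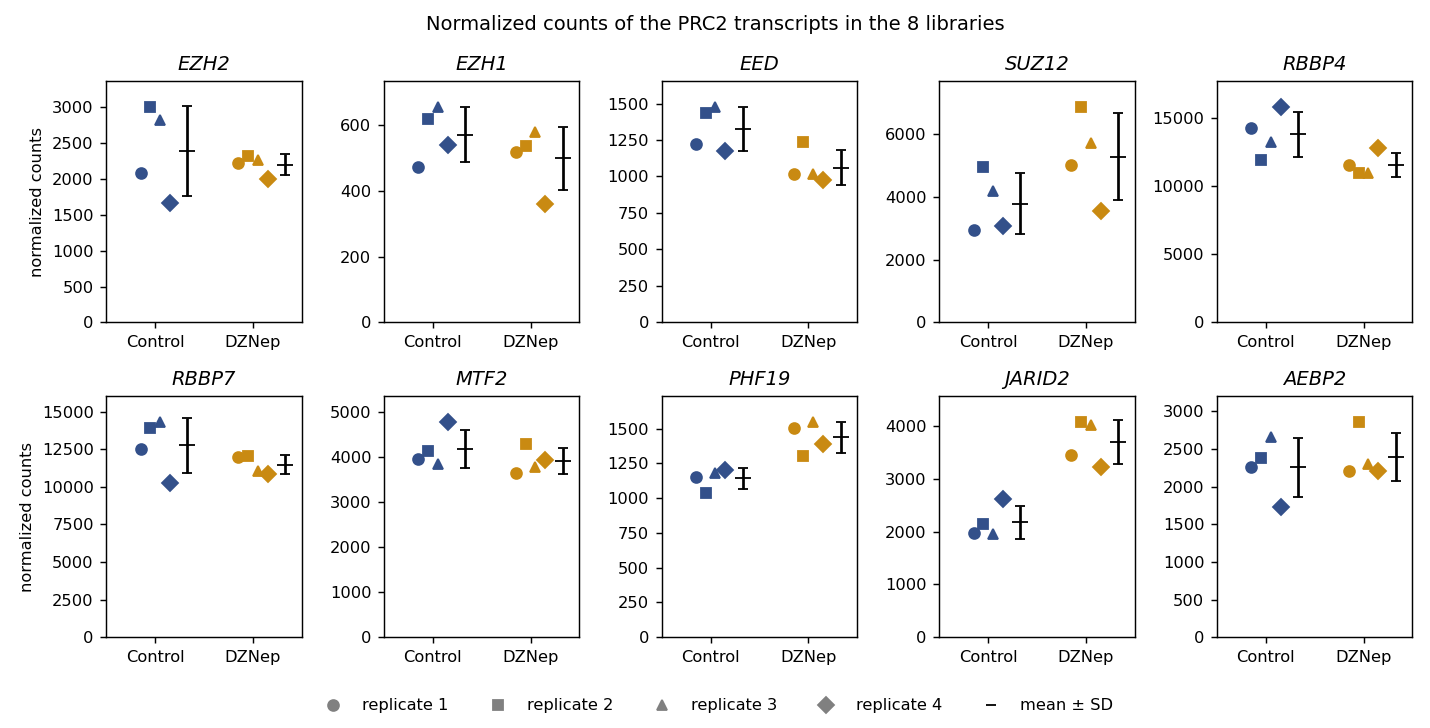
Normalised read counts of the 10 members in each library, 1 panel per gene, with Control and DZNep side by side, the marker shape giving the replicate number and bars for the mean ± SD (n = 4). JARID2 and PHF19 are the panels in which the groups do not overlap, and in the EZH2 panel the Control libraries spread from 1664 to 3007 while the DZNep libraries lie between 1995 and 2318.

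The transcripts of the catalytic subunits did not pass the test. EZH2 (ENSG00000106462, GRCh38 chr7:148807257-148884321, minus strand) had 2084, 3007, 2824 and 1664 normalised counts in Control replicates 1 to 4 and 2225, 2318, 2271 and 1995 in DZNep replicates 1 to 4. The DZNep libraries all fell inside the Control range, with the highest Control values in replicates 2 and 3 and the lowest in replicate 4. Mean counts were 2395 ± 629 in Control and 2202 ± 143 in DZNep (SD, n = 4 each). DZNep over Control gave a log2 fold change of -0.15 with an SE of 0.19. Its 95% interval ran from -0.57 to 0.28, with an adjusted p of 0.570 by edgeR, and with the replicate block the adjusted p was 0.467. The interval leaves room for a moderate fall or a small rise, so the test does not show that EZH2 transcript stayed the same. The pairs moved both ways, with log2 ratios of 0.09, -0.38, -0.31 and 0.26 for replicates 1 to 4.

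EZH1, the less active paralog that predominates in many non-dividing cells, was the lowest of the members per length of transcript. EZH1 (ENSG00000108799, chr17:42700275-42745049, minus strand) had 472, 619, 655 and 538 normalised counts in Control and 518, 535, 580 and 361 in DZNep. The groups overlapped, and DZNep replicate 4 was the lowest library of all. Its log2 fold change of -0.22 had an SE of 0.18 (95% interval -0.63 to 0.19, adjusted p = 0.367 by edgeR).

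The promoter window before the outermost start of EZH2 is shown because it is dense in the CCAAT letters that name the NF-Y box. Another EZH2 window, before an inner start (chr7:148883486-148883735, minus strand), held no CCAAT on either strand and is not printed. The 250 bases before the outermost start (RefSeq, GRCh38.p14, chr7:148884292-148884541, minus strand) are given 5′ to 3′, with CCAAT or its reverse complement ATTGG in capitals.
EZH2: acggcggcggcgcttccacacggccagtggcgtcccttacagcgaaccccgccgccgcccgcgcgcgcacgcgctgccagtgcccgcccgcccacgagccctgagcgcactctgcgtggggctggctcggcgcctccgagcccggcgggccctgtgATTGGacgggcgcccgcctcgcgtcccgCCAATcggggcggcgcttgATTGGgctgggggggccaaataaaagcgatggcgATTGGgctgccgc
CCAAT, read on both strands, stood in 10 of 15 promoter windows of the members, belonging to 7 of the 10 genes (EED, EZH2, JARID2, PHF19, RBBP4, RBBP7 and SUZ12), beside 32% of 35116 RefSeq windows of the same length. The E2F letters TTTGGCGC, TTTCCCGC and TTTCGCGC were found in windows of PHF19 and SUZ12, that is 2 of the 15 member windows, beside 2.32% of all windows. EZH2 has been described as an E2F target, and none of those letters stood in its windows, which says nothing of binding elsewhere.

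The genes whose profile over the 8 libraries lay nearest to that of EZH2, by the distance between mean-centred log2 CPM among 13556 genes, were ACTR6 at 0.16, PFKM at 0.17, PIGK at 0.19, LRRC40 at 0.20 and MTO1 at 0.20. These genes were picked for that nearness, so it follows from the choice that they repeat the spread of EZH2. ACTR6, for example, had 1363, 1851, 1669 and 1071 normalised counts in Control and 1414, 1418, 1474 and 1164 in DZNep. Depth and library composition are shared by every gene of a library, so the likeness is a description.

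Of the core subunits that carry no catalytic domain, EED and RBBP4 were lower in DZNep in all 4 same-numbered pairs. Each passed the test only with the replicate block, which rests on a pairing that is not stated in the titles or methods. EED (ENSG00000074266, chr11:86201212-86278813, plus strand) had 1222, 1432, 1477 and 1176 normalised counts in Control and 1017, 1235, 1016 and 976 in DZNep. Only DZNep replicate 2 reached into the Control range. Without the block the EED log2 fold change was -0.35, with an SE of 0.14 (95% interval -0.67 to -0.03, adjusted p = 0.0748 by edgeR). With the block it was -0.35 with an SE of 0.12 and an adjusted p of 0.0185. The exact two-sided permutation test over the 8 libraries gave p = 0.0857, where 4 against 4 libraries cannot go below 0.0286.

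RBBP4 (ENSG00000162521, chr1:32651142-32686211, plus strand), a histone chaperone shared with several other chromatin complexes, had 14254, 11923, 13243 and 15829 normalised counts in Control and 11525, 10941, 10950 and 12788 in DZNep. Its highest library in each group was replicate 4, and the groups overlapped through DZNep replicate 4 and Control replicate 2. RBBP4 had a log2 fold change of -0.29 with an SE of 0.15 (95% interval -0.61 to 0.04, adjusted p = 0.150 by edgeR). With the replicate block it was -0.28 with an SE of 0.11 and an adjusted p of 0.0413.

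RBBP7, the close paralog of RBBP4, did not pass with or without the block. RBBP7 (ENSG00000102054, chrX:16839283-16870362, minus strand) had 12495, 13948, 14333 and 10286 normalised counts in Control and 11979, 12042, 11042 and 10885 in DZNep. As for EZH2, the DZNep libraries lay inside the Control range. RBBP7 had a log2 fold change of -0.18 with an SE of 0.15 (95% interval -0.52 to 0.16, adjusted p = 0.377 by edgeR). The paralogs share little sequence at the length of a read. The longest stretch identical between the canonical coding sequences was 26 bases for RBBP4 and RBBP7, 20 bases for EZH2 and EZH1 and 12 bases for MTF2 and PHF19, against 150-base reads. RBBP7 shares 179 exonic bases with TXLNG and RBBP4 shares 2160 with SYNC, each on the opposite strand. Whether the authors' counting used strand is not given in the sources used here. SYNC averaged 32.1 ± 10.7 normalised counts in Control and 14.5 ± 7.9 in DZNep (SD, n = 4 each), far below RBBP4, and TXLNG averaged 4258 ± 222 and 4394 ± 369.

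SUZ12, the scaffold, was higher in DZNep in all 4 same-numbered pairs, while its spread within each group was wide. SUZ12 (ENSG00000178691, chr17:31937007-32001038, plus strand) had 2946, 4968, 4189 and 3061 normalised counts in Control and 5011, 6876, 5714 and 3566 in DZNep. In both groups replicates 1 and 4 were below replicates 2 and 3, and the groups overlapped. SUZ12 had a log2 fold change of 0.45 with an SE of 0.24 (95% interval -0.07 to 0.98, adjusted p = 0.152 by edgeR). With the replicate block it was 0.45 with an SE of 0.12 and an adjusted p of 0.00484, and without DZNep replicate 4, leaving 3 against 4 libraries, it was 0.61 with an adjusted p of 0.0493. The pairs gave log2 ratios of 0.77, 0.47, 0.45 and 0.22, the smallest in replicate 4.

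A copy of the first exons of SUZ12 is transcribed from SUZ12P1 on the same chromosome, and a stretch of 178 bases is the same in both, longer than a 150-base read. That stretch is shown with its flanks because a read that lies inside it cannot be placed by its sequence. It spans exons 1 to 5 of each transcript (GENCODE 44, GRCh38, plus strand), from chr17:31937518-31966174 in SUZ12 and chr17:30732121-30759518 in SUZ12P1, introns removed, with the 2 bases that differ in capitals.
SUZ12: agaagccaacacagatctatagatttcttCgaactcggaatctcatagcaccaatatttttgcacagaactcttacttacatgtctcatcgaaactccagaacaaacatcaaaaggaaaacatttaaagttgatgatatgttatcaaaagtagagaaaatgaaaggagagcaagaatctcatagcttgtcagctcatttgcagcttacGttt
SUZ12P1: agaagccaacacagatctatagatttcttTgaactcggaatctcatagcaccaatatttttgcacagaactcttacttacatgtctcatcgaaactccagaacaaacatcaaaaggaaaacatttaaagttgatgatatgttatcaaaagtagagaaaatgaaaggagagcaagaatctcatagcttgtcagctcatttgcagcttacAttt
SUZ12P1 had 760, 475, 601 and 819 normalised counts in Control and 443, 463, 466 and 593 in DZNep, with a log2 fold change of -0.46 and an SE of 0.19 (adjusted p = 0.083 by edgeR). Its share of the SUZ12 count of the same library averaged 19.1% over the Control libraries and 10.1% over the DZNep libraries. Per the study's methods only uniquely placed reads were counted, and how many reads of the shared stretch were lost for either gene was not tested. The annotated copies of EED, EZH2 and RBBP4 had at most 18 reads in a library.

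Among the Polycomb-like subunits, which bind unmethylated CpG-rich DNA and H3K36-methylated histones, PHF19 was higher in every DZNep library while MTF2 was not. PHF19 (ENSG00000119403, chr9:120855651-120894896, minus strand) had 1153, 1034, 1177 and 1202 normalised counts in Control and 1503, 1305, 1549 and 1389 in DZNep. The lowest DZNep library was above the highest Control library, and in Control its spread was the narrowest of the members relative to the mean. Its log2 fold change of 0.30 had an SE of 0.13 (95% interval 0.02 to 0.59), and the adjusted p of 0.0851 by edgeR missed the call. It was made with the replicate block, at an adjusted p of 0.0322 with an SE of 0.11, and by DESeq2, where the log2 fold change was 0.34 at an adjusted p of 0.0297. The exact permutation test gave p = 0.0286, the smallest that 4 against 4 libraries allow.

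MTF2 (ENSG00000143033, chr1:93079235-93139079, plus strand) had 3945, 4128, 3835 and 4778 normalised counts in Control and 3640, 4292, 3767 and 3926 in DZNep. The groups overlapped in part, with the highest value in Control replicate 4 and the lowest in DZNep replicate 1. MTF2 had a log2 fold change of -0.12 with an SE of 0.13 (95% interval -0.42 to 0.18, adjusted p = 0.501 by edgeR).

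JARID2, which binds nucleosomes ubiquitinated by PRC1 and helps to bring PRC2 to its sites, had the largest change among the members. JARID2 (ENSG00000008083, chr6:15246069-15522042, plus strand) had 1981, 2147, 1957 and 2617 normalised counts in Control and 3460, 4083, 4028 and 3231 in DZNep. Every DZNep library was above every Control library, and replicate 4 was both the highest of the Control libraries and the lowest of the DZNep libraries. Mean counts rose from 2176 ± 306 in Control to 3700 ± 421 in DZNep (SD, n = 4 each). On the log2 scale this fold change was 0.74 with an SE of 0.15 (95% interval 0.40 to 1.08, adjusted p = 0.00349 by edgeR). With the block the adjusted p was 0.000196. The pairs gave log2 ratios of 0.80, 0.93, 1.04 and 0.30, and the exact permutation test gave p = 0.0286, the smallest possible. Over the 17 alternatives tried the log2 fold change stayed between 0.69 and 0.84, with adjusted p from 1.95e-05 to 0.0148.

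JARID2 is annotated with more than a single start, and the 250 bases before the outermost start and before an inner start (RefSeq, GRCh38.p14, chr6:15245819-15246068 and chr6:15248605-15248854, plus strand) are shown because the inner window alone among those of the members holds the cyclic-AMP response element. The counts are per gene and do not tell which start was used. Capitals mark ATTGG, the reverse complement of CCAAT, in the outer window and the palindrome TGACGTCA in the inner window.
JARID2, outer start: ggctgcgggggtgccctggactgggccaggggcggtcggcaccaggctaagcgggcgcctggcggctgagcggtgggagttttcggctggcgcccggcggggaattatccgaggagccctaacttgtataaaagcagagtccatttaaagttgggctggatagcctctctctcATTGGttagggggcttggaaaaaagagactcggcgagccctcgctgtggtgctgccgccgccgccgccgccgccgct
JARID2, inner start: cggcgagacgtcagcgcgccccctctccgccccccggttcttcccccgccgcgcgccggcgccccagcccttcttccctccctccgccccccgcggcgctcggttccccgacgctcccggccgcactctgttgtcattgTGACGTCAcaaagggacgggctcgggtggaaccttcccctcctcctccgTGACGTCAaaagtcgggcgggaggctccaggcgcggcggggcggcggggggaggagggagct
TGACGTCA stood in 1.65% of the 35116 windows of all genes. A match is a description of letters and not of binding.

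AEBP2 (ENSG00000139154, chr12:19404045-19720801, plus strand), the zinc finger subunit that joins JARID2 in PRC2.2, had 2260, 2376, 2661 and 1726 normalised counts in Control and 2209, 2862, 2296 and 2204 in DZNep. Its groups overlapped. Its log2 fold change was 0.06 with an SE of 0.17 (95% interval -0.31 to 0.43, adjusted p = 0.806 by edgeR), and its sign turned without Control replicate 4, at -0.06, and without DZNep replicate 2, at -0.03.

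**Figure D2:**
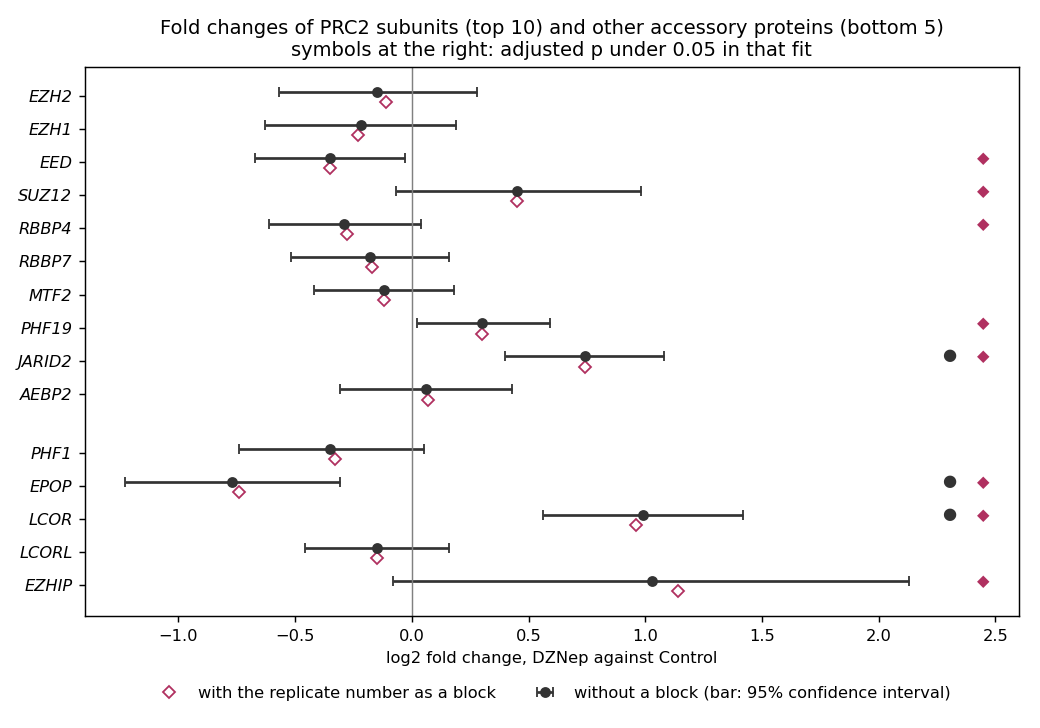
Log2 fold changes of the 10 members and of 5 other PRC2 accessory proteins, DZNep over Control, from the edgeR fit without the replicate block (filled circles with 95% intervals) and with it (open diamonds), and symbols at the right for an adjusted p under 0.05 in either fit. Only JARID2 among the members has an adjusted p under 0.05 without the block, with EPOP and LCOR among the other genes drawn.

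Proportions of subunits within a library were set out as log2 ratios. The ratios, of counts per kilobase of exon, are given without a test, and SUZ12 to EED and MTF2 to JARID2 were chosen after the values of the genes were seen. Each of those sets a gene with a higher estimate against a gene with a lower estimate. Their separation was favoured by that choice and adds no support. How many other gene pairs separate the groups was not counted. SUZ12 to EED was 1.36, 1.89, 1.60 and 1.47 in Control and 2.40, 2.57, 2.59 and 1.96 in DZNep, on average 1.58 ± 0.23 and 2.38 ± 0.29 (SD, n = 4 each). Every DZNep library was above every Control library, and the difference of 0.80 ran from 0.73 to 0.94 when each library was left out in turn. MTF2 to JARID2 was 1.07, 1.02, 1.05 and 0.95 in Control and 0.15, 0.15, -0.02 and 0.36 in DZNep. The difference was -0.86, without overlap, and MTF2 went from a level well above JARID2 to a level near it per kilobase of all annotated exons. The level of a ratio depends on the exon lengths used, and the difference between groups does so only for sums of genes. The summed PRC2.1 members MTF2 and PHF19 over the summed PRC2.2 members JARID2 and AEBP2 gave 0.37, 0.30, 0.23 and 0.56 in Control and -0.06, -0.22, -0.17 and 0.05 in DZNep. The difference was -0.46, without overlap. Of the genes summed, JARID2 had a log2 fold change of 0.74, AEBP2 of 0.06, MTF2 of -0.12 and PHF19 of 0.30. PHF1, LCOR and EPOP, described below, were not in the sums, so the ratio does not measure the balance of the whole classes.

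The ratios of the paralogs overlapped between the groups. EZH2 to EZH1 was 1.52, 1.66, 1.48 and 1.00 in Control and 1.48, 1.49, 1.34 and 1.84 in DZNep, a difference of 0.12 that ran from -0.01 to 0.20 with each library left out in turn. RBBP4 to RBBP7 was -0.18, -0.59, -0.48 and 0.25 in Control and -0.42, -0.51, -0.38 and -0.14 in DZNep. Its difference of -0.11 ran from -0.23 to 0.06 in the same way. Control replicate 4 had the lowest value of the first ratio and the highest of the second.

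**Figure D3:**
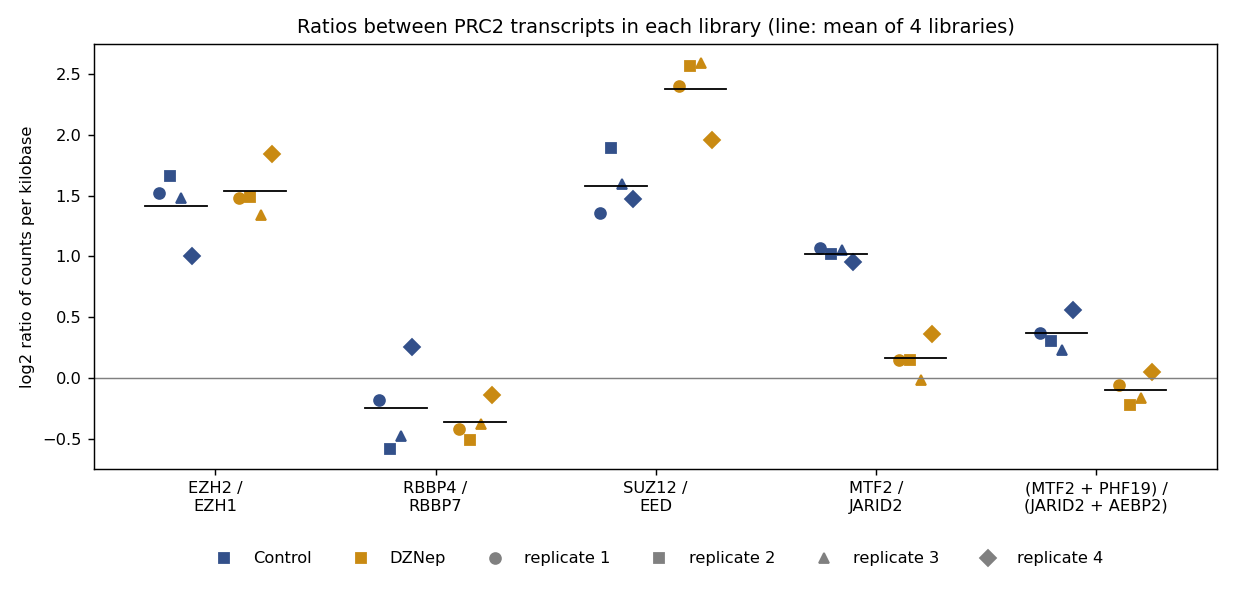
Log2 ratios of counts per kilobase between members in each of the 8 libraries, Control and DZNep side by side, with the marker shape giving the replicate number and a line for the group mean. The groups separate for SUZ12 to EED, for MTF2 to JARID2 and for the summed MTF2 and PHF19 over the summed JARID2 and AEBP2, and overlap for EZH2 to EZH1 and RBBP4 to RBBP7. SUZ12 to EED and MTF2 to JARID2 were chosen after the values of the genes were seen, which favours their separation.

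Several members shared a pattern across the replicate numbers. In Control, 6 of the 10 members (EZH2, EZH1, EED, SUZ12, RBBP7 and AEBP2) were lower in both replicates 1 and 4 than in both replicates 2 and 3, 1 (RBBP4) was higher in both and 3 were mixed. In DZNep, 5 (EZH2, EZH1, SUZ12, JARID2 and AEBP2) were lower in both, 1 (RBBP4) was higher and 4 were mixed. Of all genes tested, 35.2% were lower in that way in Control and 27.5% in DZNep, and 35.6% and 27.8% were higher. Replicates 1 and 4 also had the larger mitochondrial shares in both groups, 7.04% to 13.7% against 3.02% to 4.44%, and the part of that difference in the members' values was not tested.

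Levels between genes were compared as RPKM, that is counts scaled for library size and for the summed length of all annotated exons of a gene. The histone chaperones were the most abundant, RBBP7 at 46.4 ± 6.58 RPKM and RBBP4 at 39.0 ± 4.78 RPKM in Control (SD, n = 4). MTF2 followed at 18.9 ± 1.97 and SUZ12 at 15.4 ± 3.9 RPKM. JARID2 at 9.31 ± 1.34, AEBP2 at 8.90 ± 1.53, EZH2 at 5.93 ± 1.55, EED at 5.07 ± 0.567 and PHF19 at 4.62 ± 0.319 RPKM formed a lower tier, above EZH1 at 2.18 ± 0.315 RPKM. In Control the ranges of neighbours overlapped everywhere in this order except between RBBP4 and MTF2, between SUZ12 and JARID2 and between PHF19 and EZH1. In DZNep, JARID2 stood at 15.5 ± 1.78 and SUZ12 at 21.2 ± 5.54 RPKM, and SUZ12 came before MTF2. The order of the members depends on the length used. In Control, the lengths of the canonical transcripts moved JARID2 from rank 5 to 8, EED from 8 to 6, SUZ12 from 4 to 5 and AEBP2 from 6 to 7. For EZH2, the annotated exons add up to 10774 bases and the canonical transcript has 2654. Over canonical lengths EZH2 averaged 24.1 RPKM in Control and held rank 4 of the 10 members where it had held rank 7, while RBBP7, RBBP4 and MTF2 kept ranks 1 to 3 and EZH1 was last, at 3.29 RPKM.

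The other accessory proteins of PRC2 comprised PHF1, EPOP, LCOR, LCORL and EZHIP, of which 1 rose, 1 fell and 3 did not pass, or 40% called beside 40.8% of all genes. LCOR, whose longer product PALI1 joins PRC2.1, had 3301, 3932, 3674 and 3159 normalised counts in Control and 6901, 8332, 8429 and 4791 in DZNep. Its libraries did not overlap, and its log2 fold change was 0.99 with an SE of 0.19 (95% interval 0.56 to 1.42, adjusted p = 0.00258 by edgeR). LCOR (chr10:96832254-96995956, plus strand) also encodes the ligand-dependent corepressor from the same gene, and counts per gene do not separate the products. EPOP, a PRC2.1 partner that binds elongin, fell from 1757, 1371, 1334 and 2387 normalised counts in Control to 908, 954, 981 and 1258 in DZNep. All its DZNep libraries were below the Control libraries, with a log2 fold change of -0.77 and an SE of 0.21 (95% interval -1.23 to -0.31, adjusted p = 0.0140 by edgeR). Without DZNep replicate 1 the call was missed at an adjusted p of 0.053 with a log2 fold change of -0.69.

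PHF1, the remaining Polycomb-like protein, averaged 537 ± 106 normalised counts in Control and 431 ± 47.6 in DZNep (SD, n = 4 each), with an adjusted p of 0.144 by edgeR that was 0.0388 without Control replicate 2, at a log2 fold change of -0.47. LCORL, the paralog of LCOR, averaged 1070 ± 97.4 and 986 ± 101 (adjusted p = 0.437 by edgeR). EZHIP, an inhibitor of the catalytic subunit in germ cells and some tumours, was close to the limit of expression at 20, 4.46, 5.37 and 17.2 normalised counts in Control and 20, 20.1, 20.7 and 33.7 in DZNep. Its adjusted p was 0.125 by edgeR and 0.0308 with the replicate block. Neither demethylase that removes the mark passed the test over all 8 libraries. KDM6A had 890, 2069, 1676 and 561 normalised counts in Control and 1361, 2193, 1863 and 762 in DZNep, with the same order of replicates in both groups, and a log2 fold change of 0.22 and an SE of 0.42 (adjusted p = 0.698 by edgeR) that turned to -0.03 without Control replicate 4. KDM6B averaged 2531 ± 587 and 2004 ± 208 (adjusted p = 0.138 by edgeR), and without Control replicate 2 it passed, at a log2 fold change of -0.49 and adjusted p = 0.0336.

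Subunits of PRC1, which ubiquitinates H2A and meets PRC2 at the same loci, moved in both directions. Of 27 tested, 7 rose and 5 fell, or 44.4% beside 40.8% of all genes, with a median log2 fold change of 0.16. RYBP, which defines the variant complexes, rose by a log2 fold change of 1.29 (SE 0.26) and CBX8, a chromodomain reader of the mark, by 1.09 (SE 0.21). SCMH1 had a log2 fold change of -1.29 (SE 0.18) and PHC2, a polyhomeotic protein, of -1.14 (SE 0.16). The count that rose was 12 with the replicate block, where 28.8% of all genes rose. It was 4 without Control replicate 1, Control replicate 4, DZNep replicate 1, DZNep replicate 2 or DZNep replicate 3. In those fits, in that order, 3191, 3769, 2952, 3129 and 3096 genes rose in all, beside 3656 with every library. Of the 10 genes of the complex that removes the H2A mark (PR-DUB), 2 rose and 1 fell, or 30% beside 40.8% of all genes. MBD6 rose by 0.92 (SE 0.13), ASXL3 rose by 0.76 (SE 0.19) and FOXK1 fell by 0.59 (SE 0.14), all on the log2 scale. The count that rose was 6 with the block, where 28.8% of all genes rose. It was 4 without Control replicate 2 or DZNep replicate 4, where 4012 and 3713 genes rose in all.

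RBBP4 and RBBP7 also serve other complexes, among them NuRD, SIN3, NURF, CAF-1, DREAM and the HAT1 acetyltransferase. Of 27 listed subunits tested, some of them shared between these complexes, 5 were higher and 5 lower, or 37% beside 40.8% of all genes, with a median log2 fold change of -0.01. MTA1, a NuRD subunit, had the largest change, from 8939 ± 2877 normalised counts in Control to 1302 ± 306 in DZNep (SD, n = 4 each). On the log2 scale it fell by 2.81 (SE 0.27, adjusted p = 5.26e-05 by edgeR). SMARCA1, an ISWI ATPase, fell by 1.07 (SE 0.25), whereas the NuRD subunits GATAD2B and CHD3 rose by 0.79 (SE 0.13) and 0.73 (SE 0.24) on the log2 scale. With the block 7 rose and 9 fell, beside 28.8% and 30.2% of all genes. Without DZNep replicate 3, 3 fell, and 3491 genes fell in all, beside 4171 with every library.

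Transcription of core PRC2 genes is tied to the cell cycle through E2F, so E2F factors and genes of the G1/S transition were listed beside the members. Of 23 tested, 1 rose and 6 fell, or 30.4% in either direction beside 40.8% of all genes, with a median log2 fold change of -0.26. RB1, the pocket protein that restrains E2F, had a log2 fold change of -1.34 (SE 0.22), E2F2 of -1.22 (SE 0.16), E2F3 of -0.78 (SE 0.12) and the replication clamp PCNA of -0.75 (SE 0.19). With the block 11 fell and 3 rose, where 59.0% of all genes were called. The count that rose was 0 without Control replicate 1 or Control replicate 3 and 2 without Control replicate 2. In those fits 3191, 3290 and 4012 genes rose in all, beside 3656 with every library. Within the same libraries EZH2, EED and SUZ12 had log2 fold changes of -0.15, -0.35 and 0.45.

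Developmental genes often used as PRC2 target loci did not move one way. Of 25, 19 were expressed well enough to be tested, with 4 higher, 4 lower and a median log2 fold change of 0.12, or 42.1% called beside 40.8% of all genes. With the block 6 rose and 5 fell, where 59.0% of all genes were called. CYP26A1, which degrades retinoic acid, rose by a log2 fold change of 1.54 (SE 0.18). MYT1, GATA4 and LHX2, transcription factors of neural, endodermal and forebrain development, had log2 fold changes of -1.70 (SE 0.26), -1.51 (SE 0.16) and -1.21 (SE 0.29). The 6 genes that were not tested, WNT1, SOX17, NEUROG1, FOXA2, EVX1 and TBX5, had at most 18 reads in a library. None of these transcript changes measures H3K27 methylation at the gene.

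**Figure D4:**
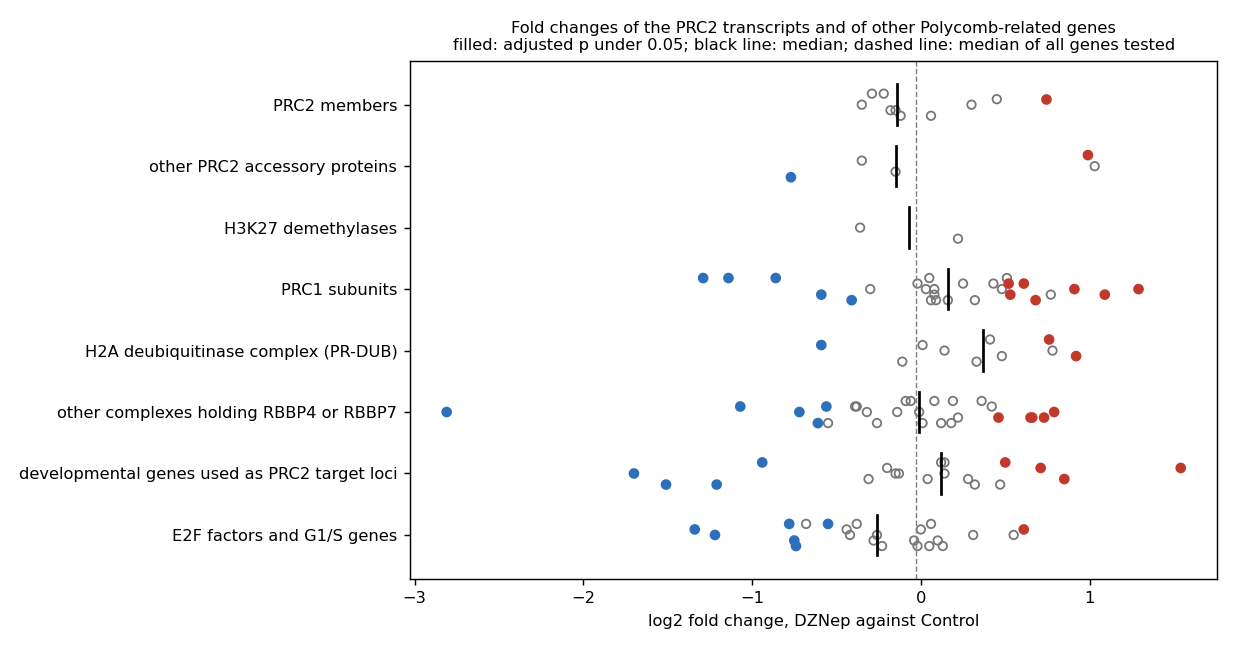
Log2 fold changes (DZNep over Control) of the tested genes of each list, 1 row per list and 1 point per gene, filled in red (higher) or blue (lower) where the adjusted p was under 0.05, with the list median as a black line and the median of all genes as a dashed line. The 10 members span -0.35 to 0.74, the 10 PR-DUB genes -0.59 to 0.92 and the 2 H3K27 demethylases -0.36 to 0.22. The 27 PRC1 subunits span -1.29 to 1.29 and the 27 genes of complexes that share RBBP4 and RBBP7 -2.81 to 0.79. Longer lists tend to span a wider range.

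The libraries were checked against markers of the line and of other cell types. Of 9 genes known in HEK293T, 8 were tested, and PAX8 had at most 8 reads in a library. KRT8 and KRT18 rose, LHX1 and PAX2 fell, and the summed level of the list was 34162 to 55936 normalised counts in Control and 42848 to 52125 in DZNep. Of 9 markers of other cell types, 5 were tested. GFAP rose from 38.4 ± 6.19 to 260 ± 17.5 normalised counts and MYH7 from 1.33 ± 0.414 to 17.8 ± 7.13 (SD, n = 4 each). CD3E, which was too low to be tested, had 0 reads in each Control library and 9, 21, 18 and 36 reads in DZNep replicates 1 to 4. HBB was at 0 in all libraries. The summed level of that list was 2474 to 4690 in Control and 2791 to 5149 in DZNep, most of it COL1A1. The part of these genes in the members' values was not tested.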

How the data were processed

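Total RNA from 8 HEK293T samples, 4 DZNep and 4 Control, was sequenced with 150-base paired reads. Per the labels and the study's methods, the authors used Trimmomatic 0.36 for trimming, STAR 2.5.2b for alignment to GRCh38, and featureCounts of Subread 1.5.2 for counting uniquely placed reads in exons. RNA selection, the annotation release and the strand setting are not given in the sources used here. The deposited counts are whole reads per Ensembl gene. A deposited normalised table, read as signal, held the same counts divided by 1 DESeq2 size factor per library for 19118 genes with a row sum over 80 counts. Groups and replicate numbers were taken from the sample titles. The labels do not say how the cultures of 1 group were set apart, so p-values measure the spread between these libraries.

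From the deposited counts, DZNep was compared with Control in R 4.3.3 by edgeR 4.0.16 (TMM, filterByExpr, quasi-likelihood test) over 19171 genes, with Benjamini-Hochberg adjustment over all of them. Calls were made at an adjusted p under 0.05, and also with an absolute log2 fold change over 1. Standard errors were derived from the fold change and its F statistic. Symbols came from GENCODE 44, which matched 56410 of 57500 identifiers. The code was tested on simulated data. Single genes were also compared by exact two-sided permutation over the libraries on log2(normalised count + 1). Likeness to EZH2 was measured among tested genes whose average log2 CPM reached 1.

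The numbers 1 to 4 are shared by the groups. Deviations of same-numbered libraries from their group means correlated at 0.14, 0.49, 0.43 and 0.67, all over 0.1, so the numbers were read as pairs. Control replicate 1 correlated more with DZNep replicate 4, at 0.53. Control replicate 2 correlated with DZNep replicate 3 at 0.40, and Control replicate 3 with DZNep replicate 2 at 0.34. Neither the sample titles nor the study's methods state a pairing. Whether the numbers mark pairs, or only the split of replicates 1 and 4 from replicates 2 and 3, was not tested. A fit blocked on these numbers is given where it changed the call of a PRC2 gene or moved a list's count of calls markedly. Libraries of 1 group were distinct, with a chi-square of at least 26.9 per degree of freedom between any pair. The alternatives were the block, DESeq2 1.42.0, median-ratio size factors, library sizes alone, no filter, 10 reads in every library, limma 3.58.1 with 3 pseudocounts, and each library left out in turn.

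The members and the lists were chosen with earlier results of these data known. All 10 members were named, and of each other list up to 4 called genes with the largest absolute log2 fold change, or the 2 most expressed where none was called. List markers, overlapping genes and pseudogene copies could be named as well. Sequences were read from RefSeq promoters of GRCh38.p14 and from GENCODE transcripts. All 10 members matched the promoter table.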

Additional observations from a re-analysis of the deposited data

Results flagged for a closer look

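In 3 of 44 groups of 4 libraries examined, a single library stood apart from the other 3 by more than the 95% critical value of Dixon's test, and chance flags about 1 group in 20. DZNep replicate 2 was the highest DZNep library for EED, at 1235 normalised counts against 976 to 1017 in the other DZNep libraries. DZNep replicate 2 was also the highest for AEBP2, at 2862 against 2204 to 2296. For EZHIP, DZNep replicate 4 was the highest at 33.7 normalised counts against 20 to 20.7.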

How the results depend on the processing

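JARID2 kept its direction and its call under all 17 alternatives. With the replicate block, 3 members rose and 2 fell (1 and 0 without it), and 5528 genes rose in all (3656 without it). Of the other listed genes, 36 rose and 32 fell (20 and 22 without it), in lists with 5, 2, 27, 10, 27, 19 and 23 tested genes. Of all genes tested, 28.8% rose and 30.2% fell with the block, and 19.1% and 21.8% without it, so the counts of all genes grew as well. Of the members and the other PRC2 genes, the block changed the calls of EED, SUZ12, RBBP4, PHF19 and EZHIP and no other. DESeq2 called 2 members higher. Requiring 10 reads in every library, which leaves 15870 genes to test, gave 1141 genes that rose past both thresholds against 2041. With each library left out in turn, 1 to 2 members rose (the second, without DZNep replicate 4, was SUZ12), 0 fell, 2952 to 4012 genes rose and 3225 to 4571 fell in all, and 14 to 27 of the other listed genes rose and 17 to 23 fell. AEBP2 turned direction without Control replicate 4 (-0.06) and without DZNep replicate 2 (-0.03) and reached 0.14 otherwise. KDM6A turned to -0.03 without Control replicate 4 and ranged up to 0.54. The causes were not tested. Each member had at least 306 reads in each library, and EZHIP averaged 11.8 normalised counts in Control and 23.6 in DZNep.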
